A study of Mus musculus with 10 samples.

Results

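The 10 genes described here are the light chain of the major histocompatibility complex (MHC) class I molecule, B2m, 8 class I heavy chain genes (H2-K1, H2-D1, H2-Q4, H2-Q5, H2-Q6, H2-Q7, H2-T22 and H2-T23) and Nlrc5, a transactivator of class I genes. They were picked by symbol from the 16154 gene identifiers in the deposited table, and all 10 were found there. The set was proposed after the knockout and wild type values of these same libraries had been seen. The difference between knockout and wild type is therefore given for the members as a description, with no test.

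The libraries were polyA RNA-seq of sorted alveolar type II (ATII) cells, the surfactant-producing cells of the lung alveolus, from C57BL/6 mice aged 8 to 10 weeks. There were 5 wild type and 5 knockout libraries, each with its own mouse number. The knockouts are labelled as lacking HOIL-1L, which is encoded by Rbck1 and is a subunit of the complex that builds linear ubiquitin chains. The sample labels name the knockout genotype HOIL-1L -/-, whereas the text on the whole series names CreSPC/HOIL-1Lfl/fl mice, in which Cre is driven by the surfactant protein C promoter in the alveolar epithelium. Whether the wild type mice carried Cre or floxed alleles is not given in the sources used here, and the letter N in the library titles is not explained.

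A class I molecule is a heavy chain held together with the light chain β2-microglobulin and a short peptide, and it shows peptides from inside the cell to CD8 T cells at the surface. Peptides are cut by the proteasome, carried into the endoplasmic reticulum by the transporter Tap1 and Tap2, and loaded with the help of tapasin. H2-K and H2-D are the classical heavy chains, while the Qa and T region genes encode nonclassical chains, some of which are recognised by receptors of natural killer cells. NLRC5 is a relative of the class II transactivator CIITA and acts at class I promoters with factors that bind the X and Y boxes, and interferons and NF-kB also act on these promoters.

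Each library's values summed to 6.94 to 7.43 M normalized counts, and the spacing of the lowest values put the depth at about 7.69 to 13.16 M reads. Values below are normalized counts per M, obtained by dividing each value by one constant. ATII markers were high in every library, with a summed level of 183824 to 220531 per M. The targeted gene Rbck1 went against the label in 2 libraries. It was at 29.7 per M in the library labelled wild type 2 and at 59.3 in the library labelled knockout 1, against 56.1 to 57.8 in the other wild type libraries and 29.8 to 38.8 in the other knockouts. Rbck1 RNA averaged 56.8 per M in wild type 3 to 6 and 35.7 in knockout 2 to 5, so the message was lower but not absent. The data hold no protein levels. Libraries keep their labels here, and the knockout difference of each member is given over all 10 and over the 8 other libraries (wild type 3 to 6, knockout 2 to 5). The mouse numbers fall in 2 runs, an earlier (wild type 2 and 3, knockout 1 to 3) and a later one (wild type 4 to 6, knockout 4 and 5), and no label says whether these are processing batches. By Xist and Y-linked transcripts, knockout 2, knockout 3 and the library labelled wild type 2 came from females and the other 7 from males, so the later run was all male.

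B2m encodes β2-microglobulin, the light chain that every class I heavy chain needs to reach the surface (mm10 chr2:122147686-122153083, plus strand, 30.2 Mb from the start of Rbck1 on the same chromosome). It was at 200.96, 192, 154 and 171 per M in wild type 3 to 6 and at 587, 486, 312 and 424 in knockout 2 to 5. The libraries labelled wild type 2 and knockout 1 were at 660 and 159. Every one of knockout 2 to 5 stood above wild type 3 to 6, while the library labelled wild type 2 was the highest of all 10 and the library labelled knockout 1 sat among the wild types. Averaged over 4 libraries each, wild type 3 to 6 had 179 ± 21.1 and knockout 2 to 5 had 452 ± 115 (SD, n = 4), and the log2 difference fitted over these 8 libraries was 1.30 ± 0.14 (SE). Over all 10 as labelled the difference was 0.63 ± 0.35, and within the later, all-male run it was 1.08 ± 0.13. In RNA from a sorted population, fewer expressing cells and less RNA per cell cannot be told apart.

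Markers of other cells moved with some of these libraries. The 6 leucocyte markers in the table (of 11 listed) summed to 43.7 per M in the library labelled wild type 2, to 33.5 in wild type 3 and to 18.7 to 25.9 in the 8 remaining libraries. Cd3e was at 0 in 6 libraries and Ms4a1 at 0 in 8. Cd79b, at 16.4 to 25.2 per M, was the largest part of the sum in every library and overlapped between the runs. Laptm5 was at 12.5 and 8.55 in the library labelled wild type 2 and wild type 3. It was at 5.02, 6.46 and 5.65 in knockout 1 to 3, and at 0.29 to 1.72 in the later run. Ptprc and Coro1a were also higher in each earlier library than in any later one. The macrophage and monocyte list, with Lyz2 left out because ATII cells express it, had 11 of 12 markers in the table and summed to 39.5 and 38.6 in knockout 2 and 3 and to 20.2 to 31.1 elsewhere. Wild type 3 had the second highest leucocyte sum, and its macrophage sum was 31.1 against 29.4 in the library labelled wild type 2, with B2m at 200.96 against 660. In the later run the leucocyte sums were 19.96 to 25.5 in wild type and 18.7 to 19.0 in knockout, and the macrophage sums 20.2 to 21.7 and 21.0 to 21.6, while B2m was at 154 to 192 and 312 to 424. One macrophage marker, Cd68, a lysosomal protein, was ordered much like the members. It was at 6.28, 5.88, 3.54 and 4.96 per M in wild type 3 to 6, at 11.6, 9.81, 7.64 and 7.77 in knockout 2 to 5 and at 10.02 and 4.76 in the libraries labelled wild type 2 and knockout 1. Csf1r, the other macrophage marker above 5 per M, was at 11.2 to 14.3 in wild type 3 to 6 and 11.7 to 16.5 in knockout 2 to 5, and Marco was at 0 in 4 libraries. Itgax was at 1.29 to 2.68 in the earlier run and 0 to 0.37 in the later. Mrc1, Ear2, Tyrobp, Fcer1g and Adgre1 split by run in the same way, while Cd68, Csf1r, Marco, Siglecf and Fcgr3 overlapped. The earlier run includes wild type 3 and the library labelled knockout 1, where the members were low. The part of other cells in the members' values was not tested.

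**Figure D1:**
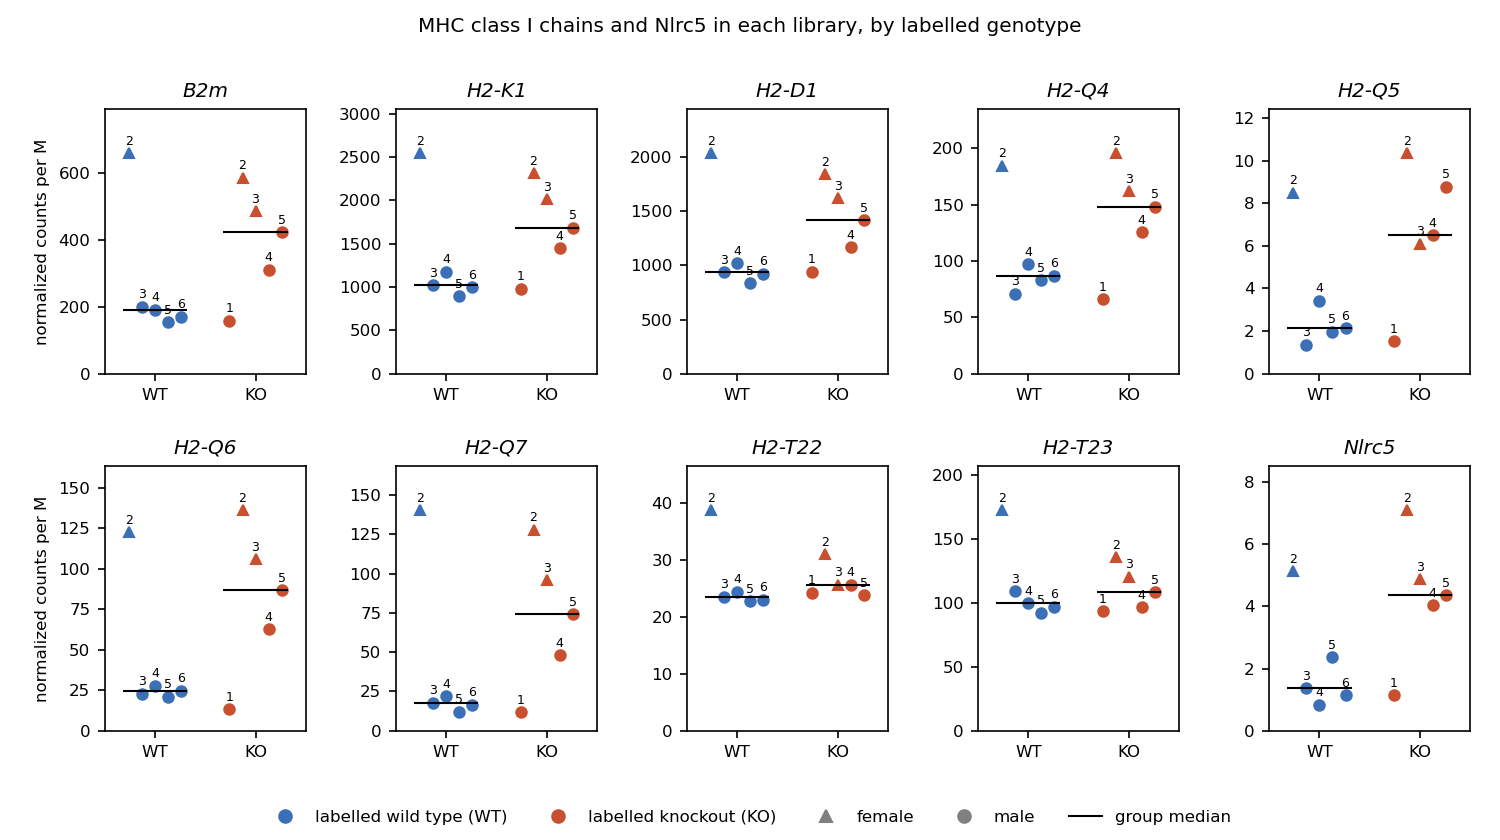
Level of each of the 10 genes in each library, in normalized counts per M on a linear axis that starts at 0, with wild type (WT) libraries on the left and knockout (KO) libraries on the right of each panel; each point is 1 library, triangles are female and circles male. In 8 panels knockout 2 to 5 lie above wild type 3 to 6, the library labelled wild type 2 lies with the knockouts and the library labelled knockout 1 with the wild types.

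H2-K1 encodes the classical heavy chain H2-K (chr17:33996017-34000347, minus strand). Its level was 1025, 1179, 892 and 1001 per M in wild type 3 to 6 and 2314, 2014, 1450.0 and 1685 in knockout 2 to 5, with 2543 and 979.9 in the libraries labelled wild type 2 and knockout 1. Knockout 4 was the lowest of knockout 2 to 5, and the groups of 4 did not overlap. The log2 difference was 0.85 ± 0.12 over the 8 libraries and 0.40 ± 0.25 over all 10. H2-D1, the other classical heavy chain gene (chr17:35262730-35267499, plus strand), was at 937, 1020.0, 837 and 925 per M in wild type 3 to 6 and at 1841, 1619, 1170.1 and 1419 in knockout 2 to 5. The libraries labelled wild type 2 and knockout 1 had 2035 and 943. H2-D1 thus had the same order of knockouts as H2-K1 and no overlap between the groups of 4, with a log2 difference of 0.69 ± 0.11 over the 8 libraries and 0.33 ± 0.21 over all 10.

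The Qa region genes H2-Q4, H2-Q5, H2-Q6 and H2-Q7 lie within 0.064 Mb of chromosome 17. H2-Q4, H2-Q6 and H2-Q7 encode nonclassical heavy chains, while H2-Q5 is annotated as a polymorphic pseudogene. H2-Q7 (chr17:35439155-35443773, plus strand), one of the genes for the Qa-2 antigen, had the largest ratio of the 10 between the highest and lowest library, 11.82. It was at 17.9, 22.2, 12.2 and 16.7 per M in wild type 3 to 6 and at 128, 95.7, 48.0 and 74.0 in knockout 2 to 5. The library labelled wild type 2 was the highest of all at 140.2 and the library labelled knockout 1 the lowest at 11.9. Wild type 3 to 6 averaged 17.3 ± 4.11 and knockout 2 to 5 averaged 86.4 ± 33.9 (SD, n = 4), a ratio of 5.01, and the fitted log2 difference was 2.23 ± 0.22, against 1.08 ± 0.60 over all 10 libraries. H2-Q6, the near neighbour of H2-Q7 (chr17:35424850-35430055, plus strand), was at 22.97, 27.9, 21.0 and 24.8 per M in wild type 3 to 6 and at 136, 106, 62.7 and 86.9 in knockout 2 to 5. It stood at 122.6 and 13.3 in the libraries labelled wild type 2 and knockout 1. Its log2 difference was 1.95 ± 0.17 over the 8 libraries, 1.58 ± 0.15 in the later run and 0.93 ± 0.52 over all 10.

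H2-Q4 (chr17:35379617-35385290, plus strand) had the smallest difference of the 4 Qa genes. Wild type 3 to 6 had 71.0, 97.1, 83.1 and 86.9 per M, knockout 2 to 5 had 195, 162, 126 and 148, and the libraries labelled wild type 2 and knockout 1 had 184.4 and 65.9. The groups of 4 did not overlap, and the log2 difference was 0.89 ± 0.12 over the 8 libraries and 0.41 ± 0.25 over all 10. H2-Q5 (chr17:35394126-35397800, plus strand), annotated as a polymorphic pseudogene, was low. It was at 1.36, 3.43, 1.97 and 2.12 per M in wild type 3 to 6, at 10.3, 6.10, 6.50 and 8.77 in knockout 2 to 5 and at 8.50 and 1.54 in the libraries labelled wild type 2 and knockout 1. These values rest on about 12 to 104 reads a library. H2-Q5 was the one member in which knockout 3 was the lowest of knockout 2 to 5, and its log2 difference was 1.65 ± 0.23 over the 8 libraries and 0.90 ± 0.42 over all 10.

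The T region genes stood apart from the other heavy chains. H2-T23 encodes Qa-1, which presents leader peptides of other class I chains to receptors of natural killer cells (chr17:36029773-36032855, minus strand). It was at 109, 99.9, 92.3 and 97.0 per M in wild type 3 to 6 and at 136, 121, 96.5 and 108 in knockout 2 to 5, with 172 and 93.5 in the libraries labelled wild type 2 and knockout 1. Knockout 4 lay below wild type 3, 4 and 6, so the groups of 4 overlapped. H2-T22, a ligand of some gamma delta T cell receptors (chr17:36037128-36042747, minus strand), was at 23.5, 24.4, 22.7 and 22.99 per M in wild type 3 to 6 and at 31.0, 25.6, 25.6 and 23.8 in knockout 2 to 5. The libraries labelled wild type 2 and knockout 1 had 38.7 and 24.3. Here too the groups overlapped, with knockout 5 below wild type 4, and the log2 differences over the 8 libraries were 0.17 ± 0.10 for H2-T22 and 0.20 ± 0.10 for H2-T23. Over all 10 libraries they were 0.00 ± 0.13 and -0.02 ± 0.14.

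Nlrc5 (chr8:94434356-94527272, plus strand) was the lowest member per length. It was at 1.36, 0.844, 2.36 and 1.14 per M in wild type 3 to 6, at 7.09, 4.87, 4.04 and 4.37 in knockout 2 to 5 and at 5.14 and 1.15 in the libraries labelled wild type 2 and knockout 1. About 7 to 65 reads a library lay behind these values. The groups of 4 did not overlap, and averaged 1.43 ± 0.658 and 5.09 ± 1.37 (SD, n = 4), a log2 difference of 1.57 ± 0.26 over the 8 libraries, 1.35 ± 0.35 in the later run and 0.90 ± 0.39 over all 10. The coefficient of variation over wild type 3 to 6 was 46.1% for Nlrc5, 39.2% for H2-Q5 and 23.8% for H2-Q7, and 11.8% for B2m.

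Across the 10 genes, the median log2 difference was 1.09 over the 8 libraries (range 0.17 to 2.23), 0.85 in the later run and 0.52 over all 10, beside medians of 0.001, 0.009 and 0.005 over the 12946 genes tested. In the earlier run alone, which holds the 2 libraries that went against their labels, it was 0.05. Every knockout stood above every wild type library for 0 members over all 10 libraries, for 8 over the 8 libraries and for 8 in the later run. The same held for 0.958%, 3.85% and 14.8% of all genes tested. Since the members were chosen on this contrast, nothing is read from those counts. With sex as a covariate the member median was 0.86 over the 8 libraries and 0.30 over all 10.

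**Figure D2:**
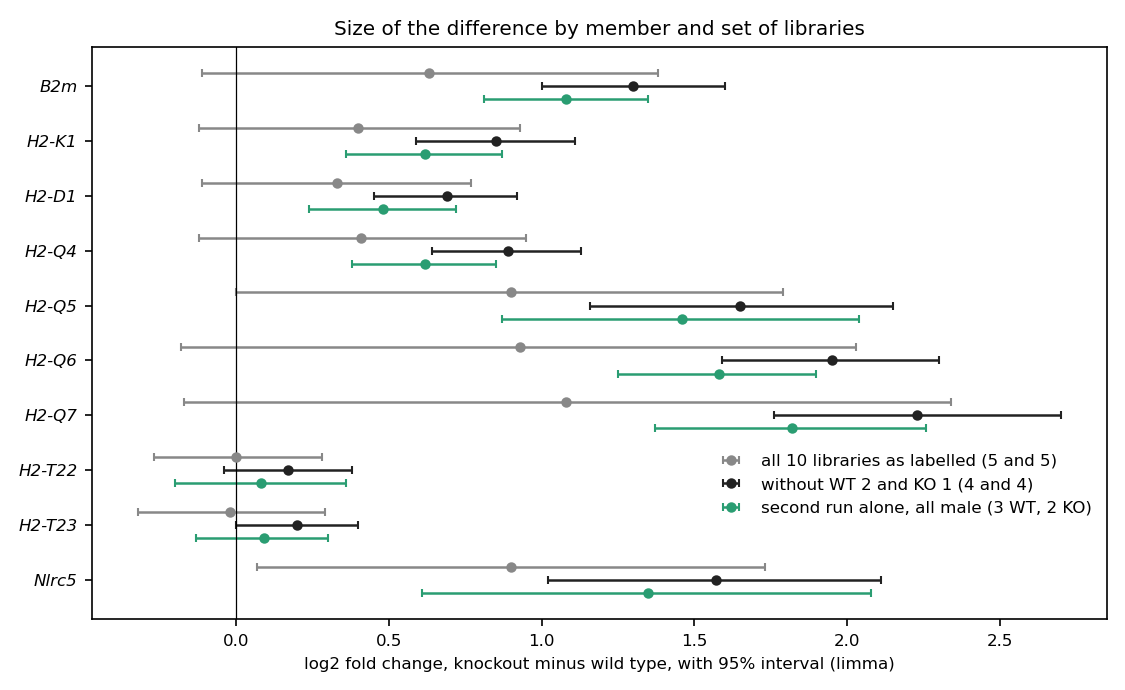
Log2 difference between knockout and wild type for each of the 10 genes, on the log2(normalized counts per M + 0.5) scale, with 95% intervals from limma, over all 10 libraries as labelled, over the 8 libraries and within the later run of mouse numbers. H2-Q7 lies at 1.08, 2.23 and 1.82 in the 3 sets, while H2-T22 lies at 0.00, 0.17 and 0.08.

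The libraries kept much the same order from gene to gene. Knockout 2 was the highest of knockout 2 to 5 in 10 of 10 members, and the order knockout 2, 3, 5, 4 held in 8. The share of all genes with these orders was not computed and the members vary together, so nothing is read from these counts. Knockout 2 and 3 both lay above knockout 4 and 5 for 9 members, H2-Q5 being the exception, as they did for 19.7% of the genes tested. For H2-T22 this rests on 25.647 per M in knockout 3 against 25.635 in knockout 4, nearly a tie. Of all 10 libraries, the library labelled wild type 2 was highest for 6 members (B2m, H2-K1, H2-D1, H2-Q7, H2-T22 and H2-T23) and knockout 2 for the other 4. Of all genes tested, 14% were highest in the library labelled wild type 2. That library stood above the other 4 wild type libraries for all 10 members, as it did for 23.1% of the genes tested. The library labelled knockout 1 was below the other 4 knockouts for 9 members (21.9% of the genes tested), the exception being H2-T22. All 3 female libraries lay above all 7 male libraries for 9 members, against 2.03% of the genes tested, H2-Q5 being the exception. H2-T22 is among the 9 by the same near tie of knockout 3 and 4. The 3 female libraries are also the 3 libraries with the least Rbck1, at 29.7, 29.8 and 36.4 per M, and all 3 are in the earlier run. Since the members were chosen on the knockout contrast, nothing is read from this count. The males of that run, wild type 3 and the library labelled knockout 1, had Rbck1 at 56.7 and 59.3. Sex and Rbck1 therefore cannot be told apart within the earlier run, and no female is in the later run. Within the all-male later run, knockout 4 and 5 had on average 2.14 times the B2m, 3.58 times the H2-Q7 and 2.90 times the Nlrc5 of wild type 4 to 6.

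**Figure D3:**
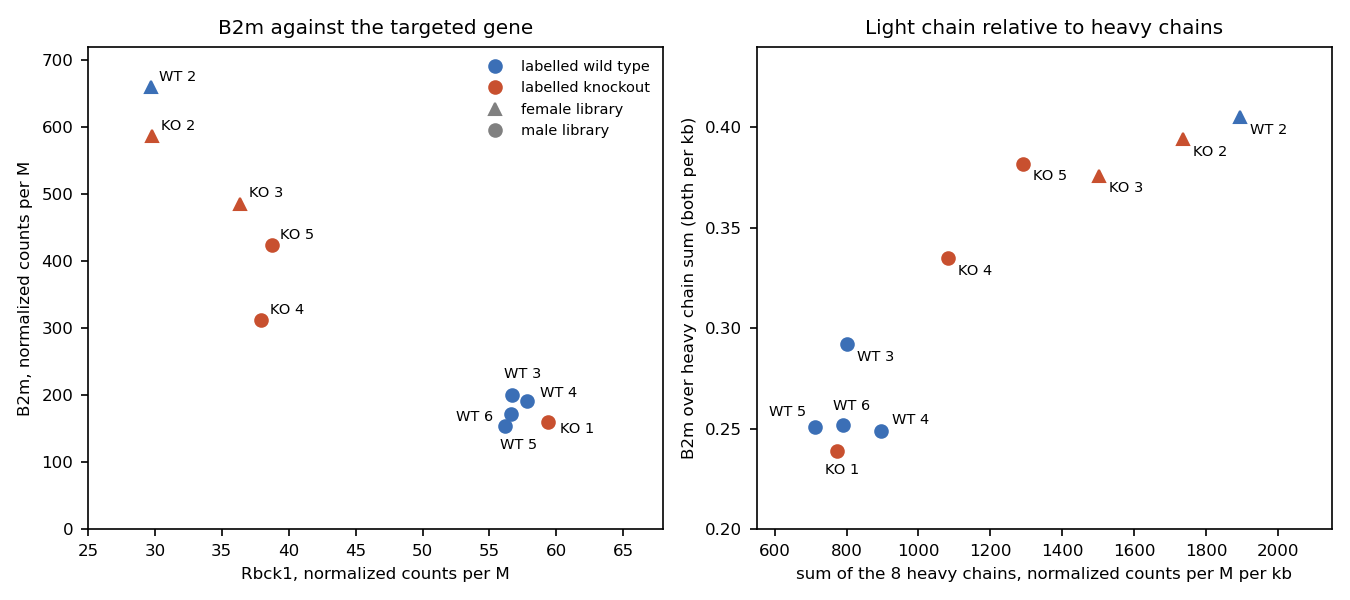
Left, B2m against Rbck1, both in normalized counts per M, 1 point a library. Right, B2m over the sum of the 8 heavy chains against that sum, both per kb of exon, with the vertical axis starting at 0.2. The 5 libraries with Rbck1 from 29.7 to 38.8 have B2m from 312 to 660 and a ratio of 0.335 to 0.405, and the 5 with Rbck1 from 56.1 to 59.3 have B2m from 154 to 200.96 and a ratio of 0.239 to 0.292.

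The contrast between the 2 runs of mouse numbers was not used to choose the members, and limma tested it across all genes. Genotype as labelled was a covariate. Over all 10 libraries it includes the 2 that went against their labels, and the SE for B2m was 0.33, against 0.11 over the 8. None of the 10 members passed an adjusted p of 0.05 over all 10 libraries, where 81 of 12946 genes did (0.626%), and 1 member, H2-T23, had an unadjusted p under 0.05, beside 15.8% of all genes. H2-T23 was 0.34 lower in the later run on the log2 scale (-0.34 ± 0.12 SE, adjusted p = 0.179). The count of 81 was 18 without the library labelled wild type 2, 44, 23 and 28 without wild type 3, 5 and 6, 43 without knockout 4 and 139 without the library labelled knockout 1, and no member passed in any of these. B2m differed by -0.53 ± 0.33 (adjusted p = 0.461) and H2-Q7 by -0.70 ± 0.58 (adjusted p = 0.598). Over the 8 libraries no member passed either, against 0.216% of genes. There, 6 members had an unadjusted p under 0.05, all lower in the later run, beside 9.86% of all genes. Among them B2m had the smallest adjusted p, 0.154 at -0.41 ± 0.11. Females are in the earlier run alone. With sex as a covariate over all 10 libraries, the differences of B2m, H2-K1, H2-D1, H2-Q4, H2-Q6, H2-Q7 and Nlrc5 between runs turned positive (0.41, 0.29, 0.18, 0.65, 1.16, 0.97 and 0.68). In that fit the only males of the earlier run are wild type 3 and the library labelled knockout 1, which went against its label.

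Levels per kb were obtained by dividing by the merged length of all annotated exons of a gene. This length was 4.265 kb for H2-Q7 and 0.86 kb for B2m. The length of the expressed transcripts was not measured, so the orders between genes given here depend on this divisor. Shared stretches of sequence add to the uncertainty for H2-T22 and the Qa genes. In wild type 3 to 6, H2-D1 and H2-K1 were the most abundant at 360 ± 29.1 and 349 ± 40.2 per M per kb (SD, n = 4), and the gap between them was within their spread. B2m followed at 209 ± 24.6. H2-T23 and H2-Q4 came next at 34.5 ± 2.49 and 32.6 ± 4.16, again within their spread, ahead of H2-Q6 at 11.6 ± 1.39, H2-T22 at 6.86 ± 0.219, H2-Q7 at 4.05 ± 0.964, H2-Q5 at 1.40 ± 0.547 and Nlrc5 at 0.168 ± 0.077. In knockout 2 to 5 the order of the lower chains differed, with H2-Q6 at 47.0 ± 14.9 beside H2-T23 at 39.9 ± 5.82, and H2-Q7 at 20.3 ± 7.95 beside H2-T22 at 7.77 ± 0.916. H2-Q7 was above H2-T22 in 0 of these 4 wild type libraries and in 4 of these 4 knockouts. H2-Q6 was above H2-T23 in 0 of 4 and 3 of 4. In the library labelled wild type 2, H2-Q7 was at 32.9 and H2-T22 at 11.3 per M per kb, and in the library labelled knockout 1 they were at 2.78 and 7.10.

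The Qa region genes, H2-Q5 included, made up a larger share of the heavy chain sum in knockout 2 to 5. Their share, per kb, was 5.43%, 6.48%, 6.48% and 6.41% in wild type 3 to 6 and 10.2%, 9.28%, 8.67% and 9.43% in knockout 2 to 5, with 8.87% and 4.59% in the libraries labelled wild type 2 and knockout 1. There was no overlap between the groups of 4. H2-T22 and H2-T23 together made up 4.66% to 5.59% in wild type 3 to 6 and 3.23% to 3.78% in knockout 2 to 5, with 3.75% and 5.10% in the libraries labelled wild type 2 and knockout 1. H2-K1 with H2-D1 held 86.6% to 90.3% across the 10 libraries. The light chain also stood higher against the heavy chains, with a ratio of B2m to the heavy chain sum of 0.249 to 0.292 in wild type 3 to 6 and 0.335 to 0.394 in knockout 2 to 5. It was 0.405 and 0.239 in the libraries labelled wild type 2 and knockout 1.

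**Figure D4:**
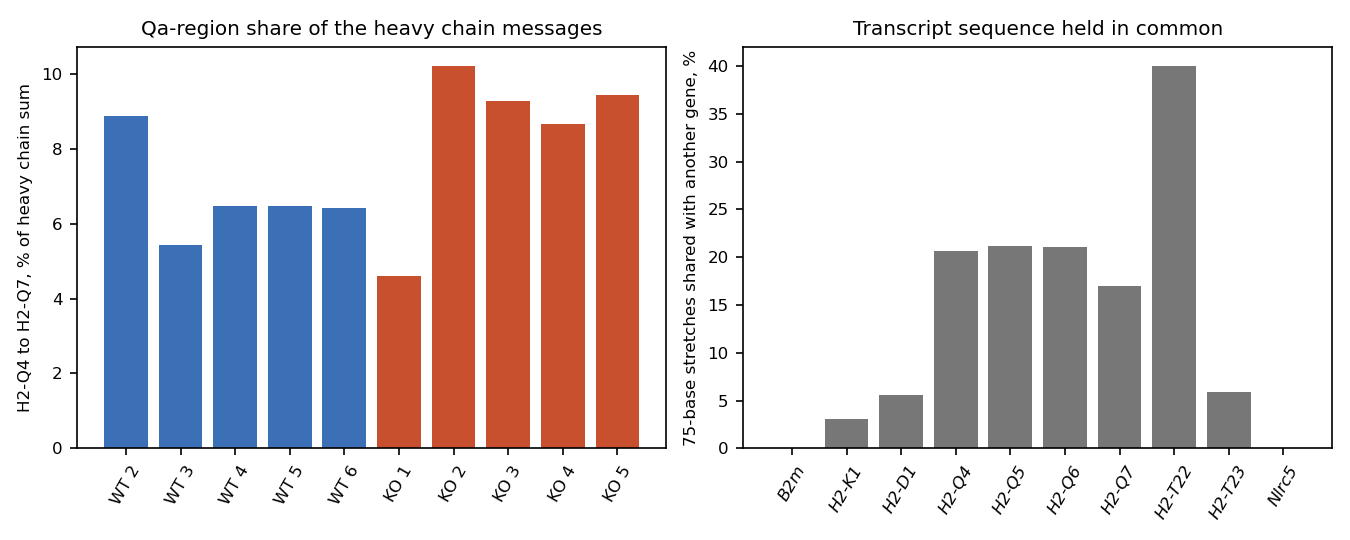
Left, share of the 8 heavy chains' summed level (per kb) held by the 4 Qa region genes in each library, on an axis in percent. Right, share of each gene's 75-base stretches that also occur in transcripts of another gene, in percent. Knockout 2 to 5 lie at 8.67% to 10.2% against 5.43% to 6.48% for wild type 3 to 6, and the Qa genes and H2-T22 share 17.0% to 40.0% of their stretches.

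Heavy chain genes are close copies, so reads can be split or lost between them by the authors' counting. In the GENCODE transcripts, 40.0% of the 75-base stretches of H2-T22 also occur in another gene (25.2% in A930015D03Rik and 15.7% in H2-T10), as do 20.7% for H2-Q4, 21.2% for H2-Q5, 21.1% for H2-Q6 and 17.0% for H2-Q7. H2-Q5 shares 16.4% with H2-Q7, and H2-Q6 shares 9.80% with H2-Q7, so the levels of these 3 are uncertain against each other. H2-K1, H2-D1 and H2-T23 share 3.10%, 5.56% and 5.91% and B2m shares 0%. Nlrc5 shares 0.0462%.

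The upstream sequences of 6 members are shown because these genes moved together or, for H2-T22, stood apart. Each is the 210 bases before the RefSeq start (GRCm38.p6), 5′ to 3′ on the gene's strand, and for H2-K1 the first of 2 listed starts is used. Capitals mark matches, on either strand, to the letters CCAAT (Y box; ATTGG on the other strand), TGACGC (part of the X2 box), GAAA, any 2 bases and GAAA again (interferon-stimulated response element), GGG, any 2 bases and TTCCC (NF-kB site), TGATGAC, and GTTTC, any 2 bases and TTC (class I interferon site), the last 2 added after the sequences had been seen.
B2m, chr2:122147477-122147686, plus strand: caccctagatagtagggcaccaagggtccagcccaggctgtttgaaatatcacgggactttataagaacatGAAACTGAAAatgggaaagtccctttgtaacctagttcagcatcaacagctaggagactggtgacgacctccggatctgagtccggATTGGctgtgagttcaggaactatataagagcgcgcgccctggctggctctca
H2-K1, chr17:34000348-34000557, minus strand: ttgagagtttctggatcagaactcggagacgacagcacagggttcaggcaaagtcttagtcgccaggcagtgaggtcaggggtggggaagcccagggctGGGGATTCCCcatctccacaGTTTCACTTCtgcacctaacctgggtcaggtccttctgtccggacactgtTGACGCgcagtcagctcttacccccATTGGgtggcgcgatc
H2-Q4, chr17:35379407-35379616, plus strand: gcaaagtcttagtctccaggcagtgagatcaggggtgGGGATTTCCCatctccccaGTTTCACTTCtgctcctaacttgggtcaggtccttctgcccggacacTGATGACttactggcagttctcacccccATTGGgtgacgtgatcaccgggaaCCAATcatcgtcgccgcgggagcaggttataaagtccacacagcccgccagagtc
H2-Q6, chr17:35424640-35424849, plus strand: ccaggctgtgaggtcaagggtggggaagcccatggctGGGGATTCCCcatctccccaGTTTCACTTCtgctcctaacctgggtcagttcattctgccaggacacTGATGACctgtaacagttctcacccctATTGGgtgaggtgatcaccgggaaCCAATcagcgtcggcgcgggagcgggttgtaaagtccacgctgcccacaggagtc
H2-Q7, chr17:35438945-35439154, plus strand: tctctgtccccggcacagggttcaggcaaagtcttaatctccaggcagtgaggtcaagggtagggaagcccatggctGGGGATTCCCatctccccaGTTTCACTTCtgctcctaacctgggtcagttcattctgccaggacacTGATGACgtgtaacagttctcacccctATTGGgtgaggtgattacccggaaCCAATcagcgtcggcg
H2-T22, chr17:36042743-36042952, minus strand: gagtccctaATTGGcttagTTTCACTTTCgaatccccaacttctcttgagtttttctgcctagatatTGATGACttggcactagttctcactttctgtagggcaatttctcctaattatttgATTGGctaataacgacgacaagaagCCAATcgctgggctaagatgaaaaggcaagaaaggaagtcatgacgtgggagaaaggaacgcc

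Of the 10 members, 8 are in the promoter table, which covers 250 bases before to 50 after a start. CCAAT was in 8 of these 8 windows, against 37.4% of all 32851 promoters. The NF-kB letters were in those of H2-K1, H2-D1, H2-Q4, H2-Q6 and H2-Q7, against 1.75%, and a stricter form (GGG, any base and ATTCCC) in the same genes but H2-Q4, against 0.183%. The same 5 held the class I interferon letters (1.73% of all promoters), downstream of the NF-kB letters, with the run GTTTCACTTC in each. The response element letters were in B2m, H2-T22 and H2-T23, against 3.44%. TGATGAC was in H2-D1, H2-Q4, H2-Q6, H2-Q7 and H2-T22 (3.23%), and TGACGC in H2-K1, H2-D1 and H2-Q4 (7.4%, after the start in H2-Q4). The full TGACGTCA was in none (1.79%). The heavy chains are close relatives, so these matches are not independent of each other, and a match describes letters, not a bound site.

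The genes that load class I molecules were taken from a list of 13, of which 13 were tested. This list and those that follow were chosen with earlier results of these data known. Their p-values between knockout and wild type are therefore no independent check. By limma 0 of 13 passed an adjusted p of 0.05 over all 10 libraries, over the 8 or in the later run, where 0%, 0.402% and 0.317% of all genes did. An unadjusted p under 0.05 was reached by 0, 2 and 2 of them, beside 9.48%, 13.1% and 10.1% of all genes. Tap1, a subunit of the peptide transporter, came nearest. It was at 31.8, 31.9, 28.9 and 32.4 per M in wild type 3 to 6, at 55.0, 44.2, 36.3 and 42.7 in knockout 2 to 5 and at 70.6 and 32.4 in the libraries labelled wild type 2 and knockout 1, with a log2 difference of 0.49 ± 0.11 over the 8 libraries (adjusted p = 0.0641) and 0.17 ± 0.20 over all 10 (adjusted p = 0.804). Over the 8 libraries Psmb9, an immunoproteasome subunit, had 0.47 ± 0.16 (adjusted p = 0.226), and tapasin, encoded by Tapbp, 0.13 ± 0.07 (adjusted p = 0.447). The list's median over the 8 libraries was 0.10, against 0.001 over all genes.

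Among the factors that act on class I promoters 0 of 20 passed in any of the 3 sets of libraries by limma. An unadjusted p under 0.05 was reached by 3, 6 and 3 of them. Beside this list and the others in this paragraph, 9.48%, 13.1% and 10.1% of all genes had such a p. An adjusted p under 0.05 was reached by 0%, 0.402% and 0.317% of all genes. Over the 8 libraries Stat2, a signal carrier of the interferon receptors, differed by 0.45 ± 0.12 (adjusted p = 0.122) and Irf9, its DNA-binding partner, by 0.42 ± 0.12 (adjusted p = 0.158). None of the 9 interferon receptors and kinases passed either (1, 2 and 1 at an unadjusted p under 0.05), nor did the 3 tested relatives of Nlrc5 (0, 1 and 1), among which Ciita was at 0.25 ± 0.11 (adjusted p = 0.322). MHC class II had 0 of 9 (0, 3 and 1). Over the 8 libraries H2-DMb2 had the smallest p of that list by limma, at 1.15 ± 0.32 (adjusted p = 0.147). H2-Ab1, a class II beta chain, was at 0.22 ± 0.09 (adjusted p = 0.311). Of other class I and class I-like chains, 0 of 8 passed (2, 4 and 1). The 4 over the 8 libraries went both ways. Hfe, which takes part in iron sensing, had -0.36 ± 0.10 (adjusted p = 0.165) and Procr -1.06 ± 0.32 (adjusted p = 0.186). H2-Q10 had 0.93 ± 0.32 (adjusted p = 0.235) and H2-Q2 0.24 ± 0.11 (adjusted p = 0.376). Procr and H2-Q10 were low, averaging 2.32 and 0.933 per M in wild type 3 to 6 and 0.827 and 2.09 in knockout 2 to 5. Over all 10 libraries the differences were 0.32 for Stat2, 0.20 for Irf9, 0.10 for Ciita, 0.49 for H2-DMb2 and 0.00 for H2-Ab1. They were -0.28 for Hfe, -0.77 for Procr, 0.40 for H2-Q10 and 0.19 for H2-Q2. The adjusted p of these genes ran from 0.387 (Hfe) to 0.997 (H2-Ab1) by limma.

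Of 24 interferon-induced genes tested by limma, 0 passed over all 10 libraries, 4 rose over the 8 libraries and 0 passed in the later run. An unadjusted p under 0.05 was reached by 3, 13 and 8 of them, beside 9.48%, 13.1% and 10.1% of all genes. The list's median log2 difference was 0.21, 0.49 and 0.18 in these 3 sets, with 20, 22 and 17 of the 24 above 0. Over the 8, Rnf213 rose by 0.71 ± 0.10 (adjusted p = 0.00167), Trim30a by 1.08 ± 0.20 (adjusted p = 0.0219), the tetherin gene Bst2 by 0.78 ± 0.15 (adjusted p = 0.0224) and Ifi27l2a by 2.21 ± 0.46 (adjusted p = 0.0488). Over all 10 libraries the limma differences were 0.60 for Rnf213 (adjusted p = 0.269), 0.67 for Trim30a (adjusted p = 0.479), 0.28 for Bst2 (adjusted p = 0.785) and 1.16 for Ifi27l2a (adjusted p = 0.592). The background of genes higher was 0.286% over the 8 libraries and 0.147% in the later run. The count over all 85 listed genes other than the members, 4, was 1 (Rnf213) without wild type 5, without knockout 2 or with sex as a covariate, 2 without wild type 4 or knockout 3, and 9, Tap1 among them, without knockout 4. Since the lists were chosen with earlier results of these data known, these calls describe the listed genes only. Whether the members differed more than these lists was not tested.

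By Pearson's r of log2 levels over the 10 libraries, a description in which group, sex and run are shared, B2m was closest among the members to H2-Q7 (0.995) and H2-K1 (0.990), and least close to H2-T22 (0.776). Nlrc5 ran from 0.614 with H2-T22 to 0.913 with H2-Q6. Outside the members, those most like their mean were Gm11131 (0.988), which shares 13.4% of the stretches of H2-Q4, then Bst2 and Lgals3bp (0.974 each), the complement gene C3 and the NF-kB subunit gene Nfkb2 (0.965 each), C1ra (0.955), Tap1 (0.954) and Ly6i (0.950). Those most like Nlrc5 were Muc20 (0.943), Adar (0.939), which encodes an RNA-editing enzyme, Wdfy1 (0.930) and Ly6i (0.909). C3 was at 645, 593, 551 and 647 per M in wild type 3 to 6 and at 1269.5, 1019.8, 732 and 998 in knockout 2 to 5. Its groups of 4 did not overlap, and the library labelled wild type 2, at 1228, lay with the knockouts.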

How the data were processed

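PolyA RNA of sorted ATII cells was sequenced in 5 wild type and 5 knockout libraries. The authors deposited a normalized signal per gene, which are counts per gene after scaling, and how they were scaled is not stated in the labels. Genome build mm10, bcl2fastq 2.17 and edgeR 3.14.0 are listed, per the submitters' processing notes. Of 16154 identifiers, 16026 had a symbol in the GENCODE or name tables. Values were divided by 7.14 M, the mean library total, to give normalized counts per M. Depth was estimated at 7.69 to 13.16 M reads from the spacing of the lowest values, which bounds the precision of H2-Q5 and Nlrc5.

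Log2(per M + 0.5) was fitted with limma 3.58.1 (trend, R 4.3.3) on the 12946 genes that reached 1 per M in 5 or more libraries, and p-values were adjusted over all of them (Benjamini-Hochberg, threshold 0.05, two-sided). All 10 members passed this filter. The contrast between the runs was fitted with genotype as labelled as a covariate. Fold changes on this scale understate low genes. The script was tested on simulated data. Each library carries its own mouse number, so p-values measure the spread between mice as labelled.

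The members and lists were chosen with earlier results of these data known. The named genes are the members, up to 4 genes of each partner list with the smallest p over the 8 libraries and any past the threshold, and the genes of highest r with the member mean, B2m or Nlrc5. Replicate numbers did not pair the libraries. Pseudocounts of 0.1 and 2, other filters, TMM scaling, covariates, subsets and left-out libraries were tried. Leaving out each of the 8 libraries in turn was added after seeing the data. Promoters came from RefSeq (GRCm38.p6), gene positions and transcripts from GENCODE on mm10. Figures used matplotlib 3.10.9, and summaries pandas 2.3.3 and numpy 2.4.6 under Python 3.11.15.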

Additional observations from a re-analysis of the deposited data

Results flagged for a closer look

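Within each group of 5 libraries, the gap of the highest or lowest library to its nearest neighbour, over the group's range, was set against Dixon's 95% critical value for the 10 members and Rbck1. It was passed in 11 of 22 groups, where chance gives about 1 in 20, and the genes share libraries. Over the 12946 genes tested, 5.37% passed in the wild type group and 5.14% in the knockout group, and the library labelled wild type 2 was the one standing apart in 2.02%. The library labelled wild type 2 gave 10 of the 11, being highest of the wild types at 660.2 per M for B2m, 2543 for H2-K1, 2035.4 for H2-D1, 184.4 for H2-Q4, 8.50 for H2-Q5, 122.6 for H2-Q6, 140.2 for H2-Q7, 38.7 for H2-T22 and 172.4 for H2-T23. It was lowest for Rbck1, at 29.7 per M. The remaining one was H2-T22 in knockout 2, at 31.0 per M, the highest of the knockouts.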

How the results depend on the processing

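By limma, 0 genes passed between knockout and wild type over all 10 libraries, with 1227 at an unadjusted p under 0.05. The count was 52 without the 2 libraries that went against their labels, 41 in the later run alone, 27 without the 2 libraries and with sex as a covariate, and 1 with run as a covariate. It was 0 to 4 when each of the 10 libraries was left out in turn (4 without the library labelled knockout 1), and 19 (without wild type 5) to 100 (without wild type 6) when each of the 8 was left out too. With the replicate number as a block it was 261 (210 higher, 51 lower), and 6 listed partner genes passed. Number 1 occurs among knockouts alone and number 6 among wild types alone. The library labelled knockout 1 and wild type 6 therefore did not bear on the difference in that fit. Same-numbered libraries' deviations correlated at 0.314, 0.027, 0.099 and 0.079, and 3 of 8 libraries correlated best with their own number, so the numbers were not taken to pair them.

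The partner count, 0 over all 10 libraries (9 at an unadjusted p under 0.05), was 4 over the 8, 1 with sex as a covariate there, 0 to 1 with 1 of the 10 left out and 1 to 9 with 1 of the 8 left out. The members' median log2 difference, 0.52 over all 10 libraries, ran from 0.37 to 0.84 with 1 of the 10 left out. With 1 of the 8 left out it ran from 0.97 to 1.23 (without knockout 4). It was 0.30 with sex and 0.46 with run as a covariate over all 10, and 0.86 over the 8 with sex as a covariate. In the earlier run alone it was 0.05 and in the later run alone 0.85. Over 30 alternatives H2-K1, H2-D1 and the 4 Qa genes stayed above 0 in 30, and B2m in 29 (lowest -0.03, earlier run). H2-T22 stayed above 0 in 16 and H2-T23 in 14, and Nlrc5 in 29 of the 29 where it was tested. The members were chosen on this contrast and the alternatives reuse the same libraries, so these counts are no independent check.

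Between the 2 runs, with genotype as labelled as a covariate, 81 genes passed. The count was 51 at a filter of 5 per M, 28 over the 8 libraries, 43 with sex as a covariate and 18 to 139 with 1 library left out. No member passed in any of these. With sex as a covariate over all 10 libraries, the run differences reversed to 0.41 for B2m, 0.29 for H2-K1, 0.18 for H2-D1, 0.65 for H2-Q4, 1.16 for H2-Q6, 0.97 for H2-Q7 and 0.68 for Nlrc5. With 1 library left out they ran from -0.37 to 0.18 for H2-Q4, -0.29 to 0.63 for H2-Q5, -0.92 to 0.24 for H2-Q6, -1.26 to 0.06 for H2-Q7 and -0.64 to 0.12 for Nlrc5. The cause was not tested. A replicate block could not be fitted for the run contrast, because the numbers lie within runs. Depth limits H2-Q5 and Nlrc5.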

Other observations

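The balance between pairs of heavy chains is given here per kb of merged exon, and its size depends on these lengths. For the classical chains, H2-K1 over H2-D1 was 0.960, 1.01, 0.936 and 0.950 in wild type 3 to 6 and 1.10, 1.09, 1.09 and 1.04 in knockout 2 to 5, with 1.10 and 0.912 in the libraries labelled wild type 2 and knockout 1. There was no overlap between the groups of 4. H2-Q7 over H2-Q6, genes that share stretches of sequence, was 0.382, 0.390, 0.284 and 0.329 in wild type 3 to 6 and 0.460, 0.441, 0.374 and 0.416 in knockout 2 to 5, so these groups overlapped. It was 0.559 and 0.437 in the libraries labelled wild type 2 and knockout 1, and the value of the latter lay above all of wild type 3 to 6.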
